A study of Mus musculus with 4 samples.

Results

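The genes described here are 40 genes of cell cycle progression and its inhibition, chosen by symbol: 12 genes of S phase and DNA replication, 6 cyclin and CDK genes, 18 genes of mitosis and 4 inhibitors of cyclin-dependent kinases (CDKs). All 40 were found among the 24062 gene symbols of the deposited count table. Their level was measured by RNA sequencing of sciatic nerve from 4-month-old C57BL/6 mice, with 1 library for each of 4 genotypes. The PKO-NF1 library came from mice labelled P2RY14-/- Nf1fl/f Dhh Cre, in which the UDP-sugar receptor gene P2ry14 is disrupted and floxed Nf1 is combined with Dhh-Cre. The NF1 library came from Nf1fl/fl; Dhh Cre mice and is marked as a repeat in its source name, the PKO library from P2RY14-/- mice, and the WT library from C57BL/6 mice with neither mutation. Dhh-Cre is used to delete floxed genes in the Schwann cell lineage, so cells of the nerve without Cre activity keep Nf1, whereas the P2RY14-/- label names no cell type. The number of animals in a library is not given in the labels.

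Cells enter S phase when D-type and E-type cyclins with their CDKs inactivate the retinoblastoma proteins, which releases E2F factors to transcribe replication genes. Cyclin A, cyclin B and Cdk1 then drive the cell into mitosis, and the mitotic genes are transcribed late in the cycle. Inhibitors of the INK4 family, such as p18 encoded by Cdkn2c, bind Cdk4 and Cdk6, and those of the CIP/KIP family (p21, p27 and p57 from Cdkn1a, Cdkn1b and Cdkn1c) bind cyclin-CDK complexes. In adult nerve most Schwann cells have left the cycle, and transcripts of dividing cells are scarce. Loss of neurofibromin, the RAS GTPase-activating protein encoded by Nf1, raises RAS signalling, which in many cell types promotes entry into the cycle through cyclin D1.

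Total counts were 17771101 in PKO-NF1, 19064779 in NF1, 20362685 in PKO and 14111201 in WT. Levels are CPM, counts scaled to library size with TMM factors, and 1 count came to between 0.0507 and 0.0610 CPM. P2ry14 was at 10.6 CPM in PKO-NF1, 65.3 in NF1, 10.9 in PKO and 37.6 in WT, and Nf1 was at 20.5, 63.4, 41.0 and 72.8 CPM in the same order. P2ry14 reads thus remained in both P2RY14-/- libraries, and the labels do not give which part of the gene was deleted. Summed over the whole gene, Nf1 in the NF1 library lay only slightly under WT (63.4 against 72.8 CPM), and the PKO library, which carries no Nf1 mutation, lay under both. All 12 Schwann cell markers were detected in every library. Markers of skeletal muscle took 8.55% of counts in NF1 against 0.0536% to 0.211% in the other libraries, and ribosomal protein genes took 12.4% in PKO-NF1, 7.52% in NF1, 15.9% in PKO and 4.11% in WT. With 1 library per genotype there was no replicate check: a ratio sets 1 library against another, and the 95% intervals hold counting error alone. In whole nerve, fewer cells of a type and less RNA per cell cannot be told apart.

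The 36 genes of the cycle were low and the 4 inhibitors were abundant. Mean levels over the 4 libraries ran from 0.991 CPM for Bub1, a kinase of the spindle checkpoint, to 68.2 CPM for Pcna, the sliding clamp of DNA polymerase, with a median of 3.58 CPM. Of these 36 genes 19 stayed under 100 counts in every library, and the lowest count was 13, for Bub1 in WT. The inhibitors lay between 69.5 CPM for Cdkn1c and 154 CPM for Cdkn1a. Per kilobase of the longest annotated transcript the median level was 1.19 CPM for the 36 genes and 37.7 CPM for the inhibitors. Among the mitosis genes Mki67, which encodes the proliferation marker Ki-67, had the highest mean CPM, but its transcript of 10061 bases placed it at 0.953 CPM per kilobase, below Cdc20 at 2.78 CPM per kilobase.

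**Figure D1:**
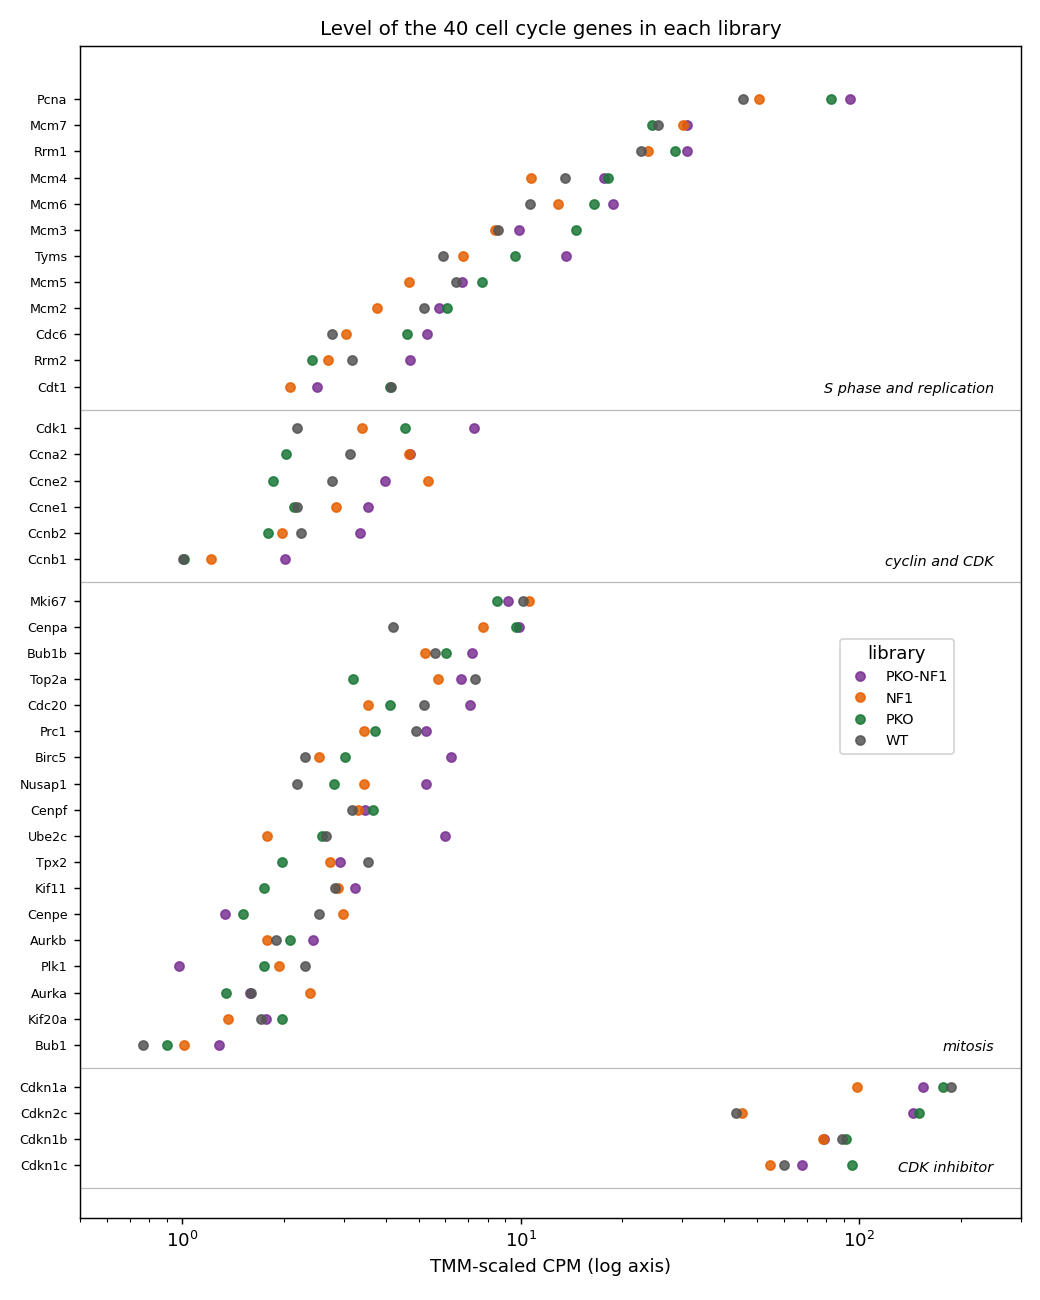
TMM-scaled CPM (log axis) of the 40 genes in the 4 libraries, with a point for each library and genes grouped by role. The 4 inhibitors lie between 43.4 and 187 CPM, and among the other genes only Pcna exceeds 40 CPM.

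A gene is called higher or lower where the libraries were at least 2-fold apart and the interval excluded a ratio of 1. In NF1 against WT, the comparison of the Nf1 mutation on intact P2ry14, 0 of the 40 genes were called, beside 10.1% of 14855 tested genes called higher and 6.23% called lower. The median log2 ratio of the 40 genes was 0.04, against -0.00 for all genes, and 26 of the 40 intervals lay wholly inside 2-fold. In PKO-NF1 against PKO, the comparison of the Nf1 mutation on the P2RY14-/- background, 5 genes were called higher and 0 lower, beside 5.18% higher and 9.61% lower over all genes. Their median was 0.23, against -0.01 for all genes. In PKO against WT, 3 genes were called higher and 1 lower, beside 10% and 5.21% over all genes, and the median was 0.07, against -0.07 for all genes. In PKO-NF1 against NF1, 5 genes were called higher and 1 lower, beside 7.86% and 13.6% over all genes, and the median was 0.42, against -0.00 for all genes. The shares of the 40 genes called higher were thus 12.5% in PKO-NF1 against PKO, 7.5% in PKO against WT and 12.5% in PKO-NF1 against NF1. These comparisons share libraries, and each is read for itself.

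**Figure D2:**
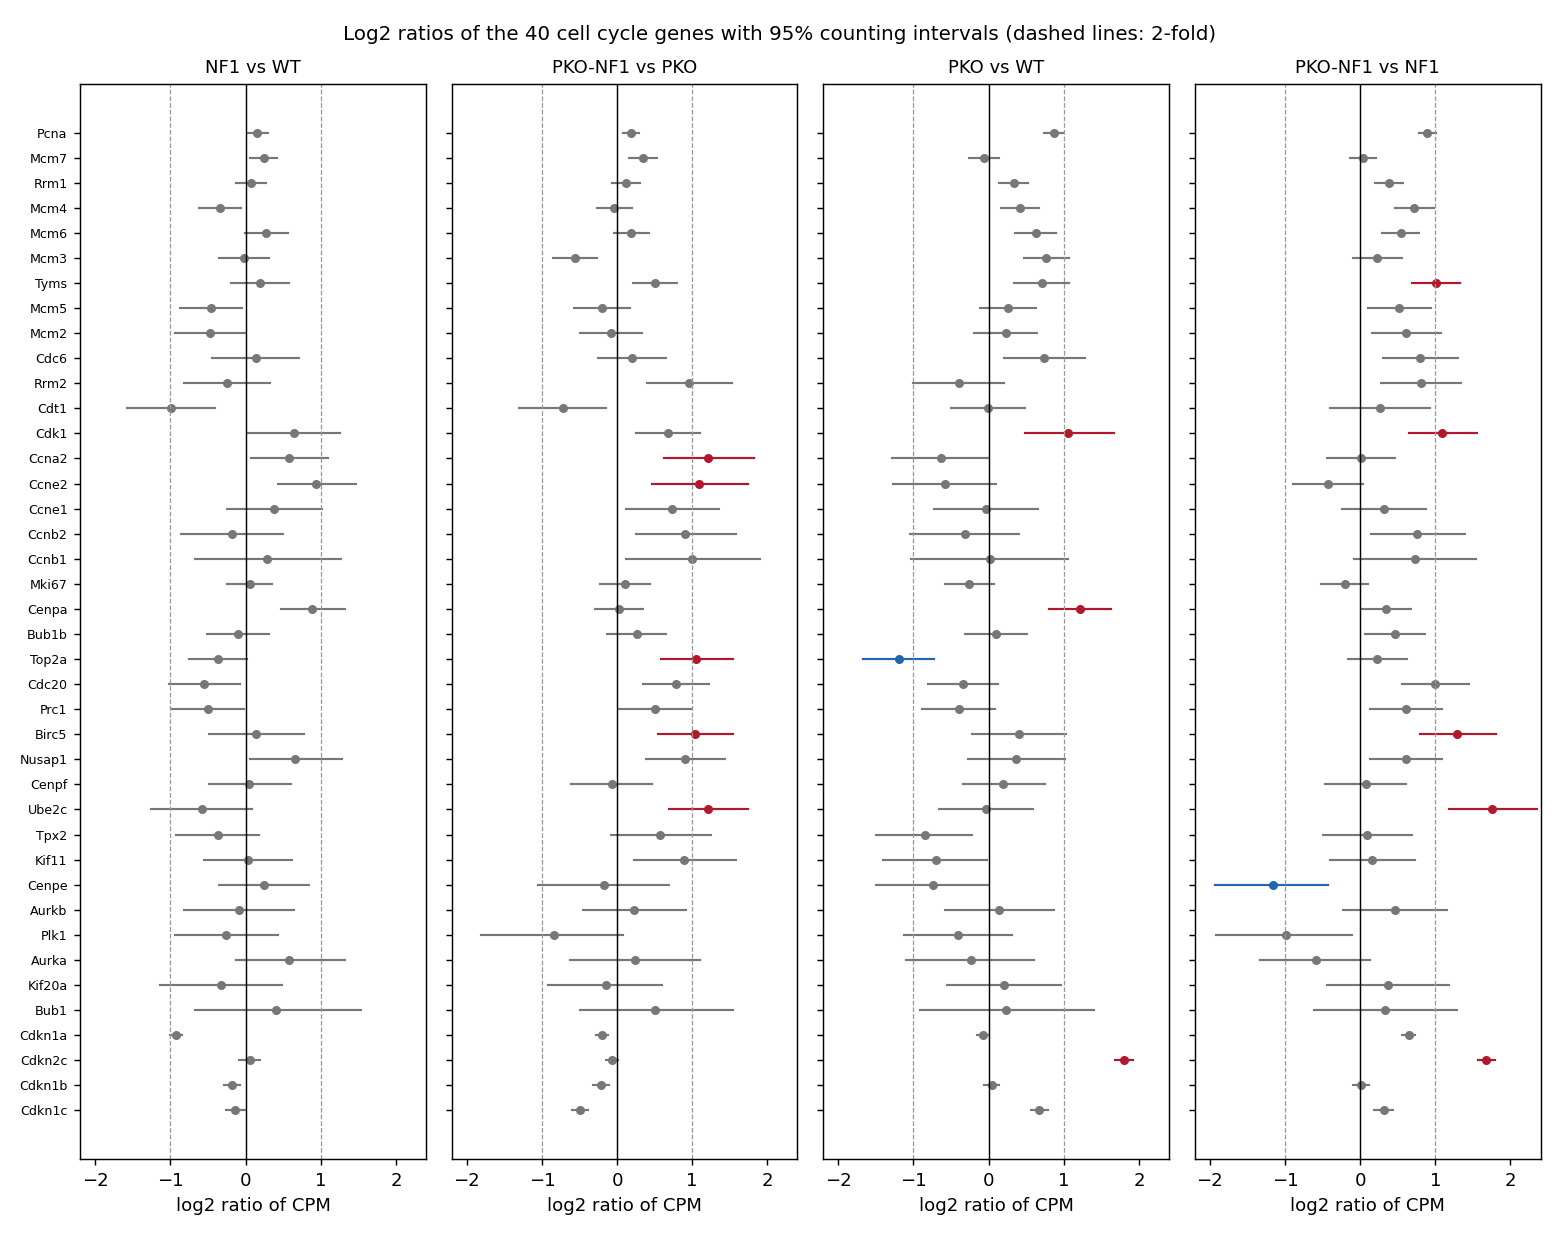
Log2 ratios of CPM of the 40 genes in the 4 comparisons, with 95% counting intervals; red and blue mark genes called higher and lower, and dashed lines mark 2-fold. Cdkn2c stands at 1.80 in PKO vs WT and 1.68 in PKO-NF1 vs NF1, and no gene is called in NF1 vs WT.

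Cdkn2c, the INK4 inhibitor of Cdk4 and Cdk6, was called higher in both P2RY14-/- libraries. Its log2 ratio was the largest of the 40 genes in PKO against WT and second to Ube2c in PKO-NF1 against NF1. The gene (ENSMUSG00000028551.14; chromosome 4, 109660876 to 109667189, minus strand, GRCm38) had 2364 counts (144 CPM) in PKO-NF1, 887 counts (45.0 CPM) in NF1, 2681 counts (151 CPM) in PKO and 735 counts (43.4 CPM) in WT. The P2RY14-/- libraries therefore lay together at the high level, and NF1 and WT together at the low level. Cdkn2c was 3.48-fold higher in PKO than in WT (95% interval 3.20 to 3.78) and 3.20-fold higher in PKO-NF1 than in NF1 (2.97 to 3.47). With P2ry14 status held, the NF1 to WT ratio was 1.04 (0.940 to 1.15), and PKO-NF1 lay 1.05-fold below PKO (0.988 to 1.10). The P2ry14 pairs share no library, and 61 of 14855 genes (0.411%) were at least as far above their counterparts in both of them. Removing trends over transcript length and GC content, chosen because the libraries differed along both, left log2 ratios of 1.72 and 1.79. Cdkn2c made up 32.4% of the summed CPM of the 4 inhibitors in PKO-NF1, 16.3% in NF1, 29.3% in PKO and 11.4% in WT. No exon of another gene of the table overlaps it.

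With TMM factors, the CIP/KIP inhibitors were called in none of the 4 comparisons. Among them Cdkn1c alone had intervals above 1 in both P2ry14 pairs, at less than 2-fold. Cdkn1a, which encodes p21, the CDK inhibitor induced by p53, was at 154 CPM in PKO-NF1, 98.6 in NF1, 178 in PKO and 187 in WT, so that NF1 was the low library. It was lower in NF1 than in WT by 1.90-fold (1.79 to 2.01), short of the 2-fold limit, and 1.57-fold higher in PKO-NF1 than in NF1 (1.48 to 1.66). With total counts as the only scaling, the log2 ratio of NF1 to WT was -1.14 and Cdkn1a was called lower. Cdkn1b, which encodes p27, was at 79.0 CPM in PKO-NF1, 78.5 in NF1, 91.4 in PKO and 88.9 in WT, and the widest gap among the 4 comparisons set PKO-NF1 below PKO by 1.16-fold (1.08 to 1.25). That log2 ratio, -0.21, became -0.49 with the trends removed. In PKO against WT the log2 ratio of Cdkn1b, 0.04, ran from -0.42 to 0.09 over the alternatives to scaling, filter and trend. Cdkn1c, which encodes p57 and is imprinted, was at 67.8 CPM in PKO-NF1, 54.6 in NF1, 95.6 in PKO and 60.0 in WT. PKO was its high library, 1.59-fold above WT (1.47 to 1.72), and PKO-NF1 lay 1.41-fold below PKO (1.31 to 1.52). PKO-NF1 lay 1.24-fold above NF1 (1.14 to 1.35). That log2 ratio, 0.31, ran from 0.15 to 0.32 over the alternatives to scaling, filter and trend. The size of both gaps to PKO depended on the processing. In PKO against WT the log2 ratio of Cdkn1c, 0.67, fell to 0.35 after trend removal and to 0.21 under total counts. In PKO-NF1 against PKO it was -0.50, then -0.19 after trend removal and -0.42 under total counts. Of the other INK4 genes, Cdkn2a, which encodes p16 and p19ARF, had 35.4 CPM in PKO-NF1, 23.5 in NF1, 14.8 in PKO and 22.4 in WT and was called higher in PKO-NF1 than in PKO. Cdkn2b, which encodes p15, had 65.1 CPM in PKO-NF1, 40.1 in NF1, 33.2 in PKO and 29.0 in WT, and Cdkn2d, which encodes p19INK4d, had 26.4 CPM in PKO-NF1, 14.8 in NF1, 18.3 in PKO and 15.9 in WT. Neither of these was called in any of the 4 comparisons, but Cdkn2b was just under 2-fold higher in PKO-NF1 than in PKO (log2 ratio 0.97) and past it with the trends removed (1.05).

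**Figure D3:**
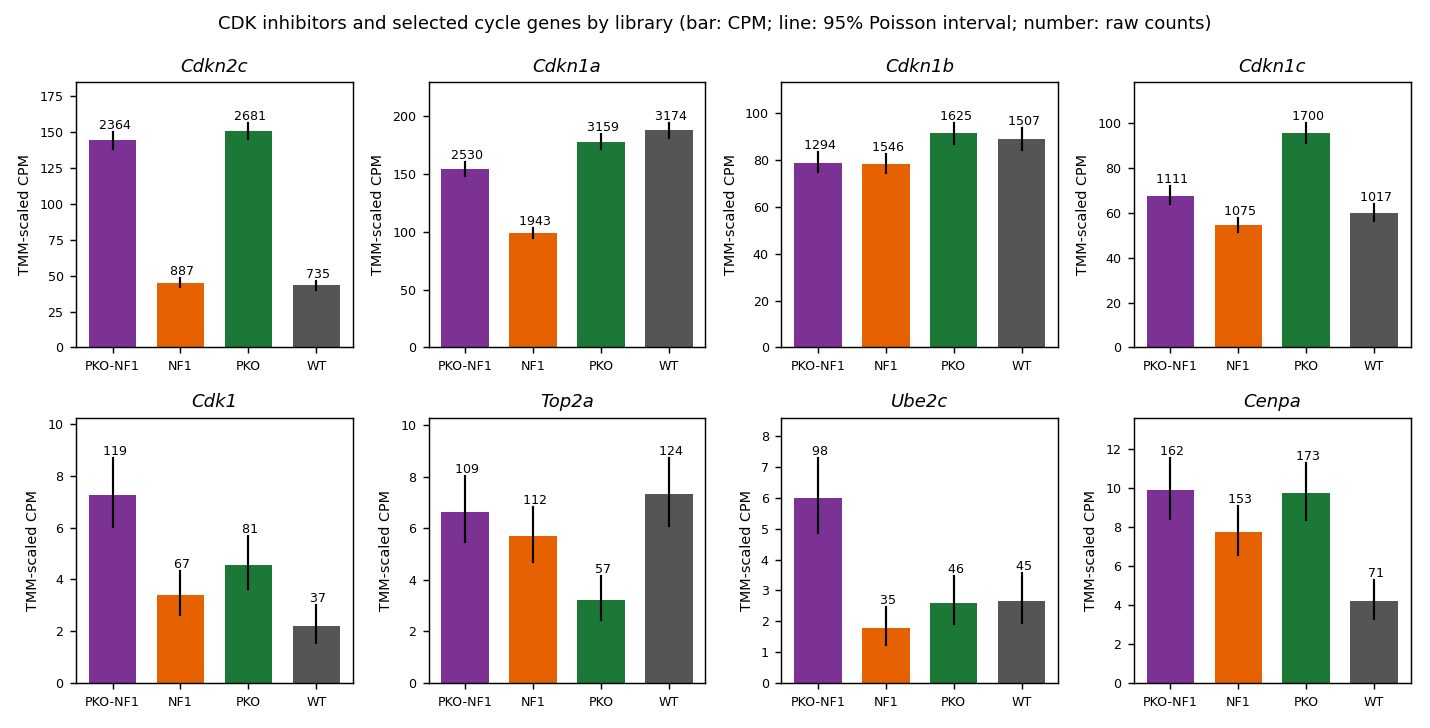
TMM-scaled CPM of the 4 inhibitors and of Cdk1, Top2a, Ube2c and Cenpa in the 4 libraries; lines are 95% Poisson intervals of the counts printed above the bars. Cdkn2c shows PKO-NF1 and PKO at 144 and 151 CPM beside NF1 and WT at 45.0 and 43.4 CPM.

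Of the 12 S phase genes, 12 had ratios above 1 in PKO-NF1 against NF1 and 9 in PKO against WT, mostly under 2-fold; the exceptions in PKO against WT were Rrm2, Mcm7 and Cdt1, with log2 ratios of -0.40, -0.06 and -0.01. The median in PKO against WT turned negative with total counts as the only scaling. Their summed level was 241 CPM in PKO-NF1, 160 in NF1, 219 in PKO and 154 in WT, or 1.51-fold higher in PKO-NF1 than in NF1 (1.44 to 1.58) and 1.42-fold higher in PKO than in WT (1.36 to 1.497). In PKO-NF1 against NF1 9 of the 12 intervals lay above 1, and in PKO against WT 7 did. Over all genes 36.8% and 28.9% of intervals lay above 1 in the same comparisons. The median log2 ratio of the 12 genes was 0.57 in PKO-NF1 against NF1 and 0.37 in PKO against WT; with total counts only these were 0.41 and -0.08, when the medians of all genes were -0.17 and -0.53. Pcna was the largest contributor, with 1541 counts (94.0 CPM) in PKO-NF1, 997 counts (50.6 CPM) in NF1, 1471 counts (82.7 CPM) in PKO and 770 counts (45.4 CPM) in WT. The P2RY14-/- libraries were both above the others, by 1.86-fold in PKO-NF1 over NF1 (1.71 to 2.01) and by 1.82-fold in PKO over WT (1.67 to 1.99). Once the length and GC trends were taken out, these log2 ratios of Pcna, 0.89 and 0.86, became 0.26 and 0.02. Its transcript is short, at 1518 bases, and ribosomal protein genes were highest in the same libraries; the part of either in the result was not tested. Pcna also has 2 annotated pseudogenes outside the table. Among the other members, Tyms has the pseudogene Tyms-ps, which is in the table, and Ccnb1 and Ccnb2 have Ccnb1-ps and Ccnb2-ps, outside it.

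Tyms, the thymidylate synthase of nucleotide supply, was the S phase gene called in PKO-NF1 against NF1. It had 223 counts (13.6 CPM) in PKO-NF1, 133 counts (6.75 CPM) in NF1, 171 counts (9.61 CPM) in PKO and 100 counts (5.90 CPM) in WT, in the same order of libraries as Pcna. It was 2.02-fold higher in PKO-NF1 than in NF1 (1.62 to 2.52) and 1.63-fold higher in PKO than in WT (1.27 to 2.11), and the first of these fell under 2-fold with DESeq2 size factors, total counts or the trends removed. Of the MCM helicase subunits, Mcm6 was at 18.8 CPM in PKO-NF1, 12.9 in NF1, 16.5 in PKO and 10.7 in WT. Mcm3 was high in PKO alone, at 14.6 CPM, against 9.88 CPM in PKO-NF1, 8.42 CPM in NF1 and 8.56 CPM in WT. Mcm7, whose exons overlap Ap4m1 and Cops6 on the opposite strand, stayed between 24.5 and 31.1 CPM. Cdt1, the licensing factor that loads the helicase, was low in both Nf1-mutant libraries, at 2.50 CPM in PKO-NF1, 2.08 in NF1, 4.10 in PKO and 4.13 in WT. PKO-NF1 lay 1.64-fold below PKO (1.10 to 2.47) and NF1 lay 1.99-fold below WT (1.33 to 2.99), from 41 to 73 counts per library. With the trends removed these log2 ratios of Cdt1, -0.71 and -0.99, became -0.40 and -0.69. The other 6 S phase genes (Mcm2, Mcm4, Mcm5, the ribonucleotide reductase subunits Rrm1 and Rrm2, and the licensing factor Cdc6) had mean levels of 3.25 to 26.5 CPM. Their log2 ratios ran from -0.47 to 0.13 in NF1 against WT, -0.20 to 0.96 in PKO-NF1 against PKO, -0.40 to 0.73 in PKO against WT and 0.38 to 0.80 in PKO-NF1 against NF1.

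The cyclin and CDK genes were highest in PKO-NF1 for 5 of 6 genes, and their sum was 24.8 CPM in PKO-NF1, 19.4 in NF1, 13.4 in PKO and 13.5 in WT. Their summed level was 1.86-fold higher in PKO-NF1 than in PKO (1.58 to 2.19) and in NF1 exceeded WT by 1.44-fold (1.22 to 1.70). Cdk1, the kinase that starts mitosis, had 119 counts (7.26 CPM) in PKO-NF1, 67 counts (3.40 CPM) in NF1, 81 counts (4.55 CPM) in PKO and 37 counts (2.18 CPM) in WT. It was called in both P2ry14 pairs, 2.14-fold higher in PKO-NF1 than in NF1 (1.57 to 2.93) and 2.09-fold higher in PKO than in WT (1.40 to 3.17). Both calls ended with total counts as the only scaling, at log2 ratios of 0.93 and 0.60. PKO-NF1 also exceeded PKO by 1.59-fold (1.19 to 2.14), and NF1 exceeded WT by 1.56-fold (1.03 to 2.39).

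Cyclin A2, Ccna2, which acts in S phase and G2, had 77 counts (4.70 CPM) in PKO-NF1, 92 counts (4.67 CPM) in NF1, 36 counts (2.02 CPM) in PKO and 53 counts (3.13 CPM) in WT, so that both Nf1-mutant libraries lay above the others. It was 2.32-fold higher in PKO-NF1 than in PKO (1.54 to 3.55) and NF1 exceeded WT by 1.49-fold (1.05 to 2.13). Cyclin E2, Ccne2, a partner of Cdk2 at the start of S phase, had 65 counts (3.97 CPM) in PKO-NF1, 105 counts (5.33 CPM) in NF1, 33 counts (1.86 CPM) in PKO and 47 counts (2.77 CPM) in WT. It was 2.14-fold higher in PKO-NF1 than in PKO (1.39 to 3.36) and NF1 exceeded WT by 1.92-fold (1.35 to 2.77). Without the length and GC trends the log2 ratios of PKO-NF1 to PKO were 0.82 for Ccna2 and 0.08 for Ccne2, and neither was called; that of NF1 to WT for Ccne2, 0.94 before, was then 0.24. Ccna2 overlaps an exon of Exosc9, and Ccne2 an exon of Ints8, each on the opposite strand. Cyclin B1, Ccnb1, had only 17 to 33 counts in a library, and its intervals excluded 1 in PKO-NF1 against PKO alone. Across Ccnb1, Ccnb2 and Ccne1 the log2 ratios were 0.73 to 0.99 in PKO-NF1 against PKO, and -0.18 to 0.38 in NF1 against WT. Ccnb2 was called lower in PKO than in WT with the trends removed (log2 ratio -1.12, against -0.32 before).

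The 18 mitosis genes summed to 81.7 CPM in PKO-NF1, 64.4 in NF1, 60.6 in PKO and 64.8 in WT. Their summed level was 1.35-fold higher in PKO-NF1 than in PKO (1.24 to 1.46), 1.27-fold higher in PKO-NF1 than in NF1 (1.17 to 1.37) and 1.01-fold lower for NF1 against WT (0.928 to 1.09). Mki67 had 150 counts (9.15 CPM) in PKO-NF1, 208 counts (10.6 CPM) in NF1, 151 counts (8.49 CPM) in PKO and 172 counts (10.1 CPM) in WT, and all 4 of its intervals included 1. The NF1 to WT ratio of Mki67 was 1.04 (0.846 to 1.28), and that of PKO-NF1 to PKO was 1.08 (0.854 to 1.36). With the trends removed its log2 ratios were 0.25 in NF1 against WT and 0.52 in PKO-NF1 against PKO, and that of PKO-NF1 to NF1 turned to 0.52 from -0.21.

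**Figure D4:**
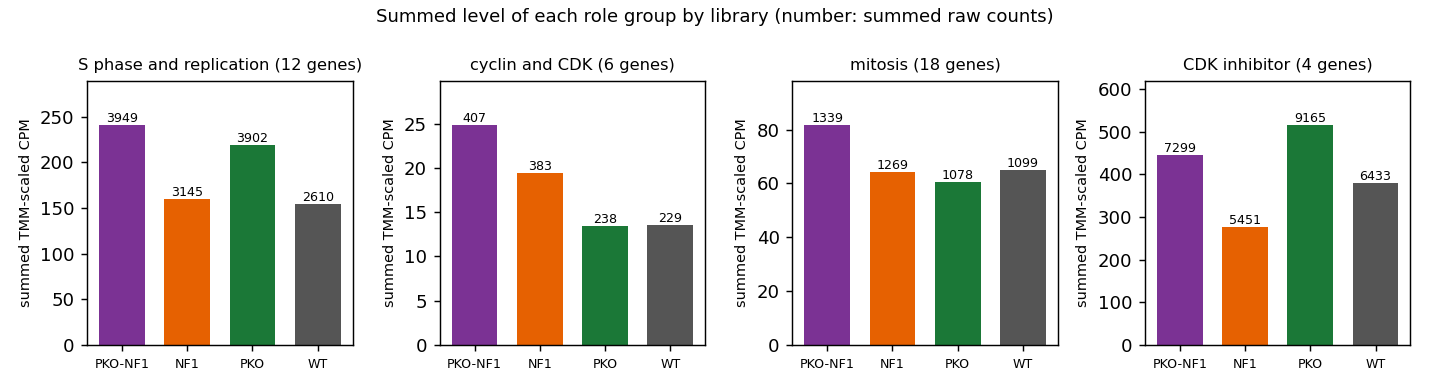
Summed TMM-scaled CPM of each role group in the 4 libraries, with summed raw counts above the bars. The mitosis genes are at 81.7 CPM in PKO-NF1 and between 60.6 and 64.8 CPM in the other libraries, and the S phase genes at 241 and 219 CPM in PKO-NF1 and PKO.

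Ube2c, the ubiquitin-conjugating enzyme of the anaphase-promoting complex, and Birc5, which encodes survivin of the chromosomal passenger complex, were high in PKO-NF1 alone. Ube2c had 98 counts (5.98 CPM) in PKO-NF1, 35 counts (1.78 CPM) in NF1, 46 counts (2.59 CPM) in PKO and 45 counts (2.66 CPM) in WT. It was 2.31-fold higher in PKO-NF1 than in PKO (1.61 to 3.36) and 3.37-fold higher in PKO-NF1 than in NF1 (2.27 to 5.10). An exon of Ube2c overlaps the muscle gene Tnnc2 on the opposite strand, which had 171 counts in PKO-NF1, 46873 in NF1, 47 in PKO and 775 in WT; no source used here gives the strand setting of the counting, and the part of this overlap was not tested. Birc5 had 102 counts (6.22 CPM) in PKO-NF1, 50 counts (2.54 CPM) in NF1, 54 counts (3.04 CPM) in PKO and 39 counts (2.30 CPM) in WT. It was 2.05-fold higher in PKO-NF1 than in PKO (1.46 to 2.91), a call that ended with the trends removed (log2 ratio 0.78), and 2.45-fold higher in PKO-NF1 than in NF1 (1.73 to 3.51).

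Top2a, the DNA topoisomerase of chromosome condensation, was low in PKO alone. It had 109 counts (6.65 CPM) in PKO-NF1, 112 counts (5.68 CPM) in NF1, 57 counts (3.20 CPM) in PKO and 124 counts (7.32 CPM) in WT. It was 2.28-fold lower in PKO than in WT (1.66 to 3.18) and 2.08-fold higher in PKO-NF1 than in PKO (1.49 to 2.91). The calls share the PKO library, and the second ended with the trends removed (log2 ratio 0.91). Cenpa, the histone H3 variant of centromeres, was low in WT alone, with 162 counts (9.88 CPM) in PKO-NF1, 153 counts (7.76 CPM) in NF1, 173 counts (9.73 CPM) in PKO and 71 counts (4.19 CPM) in WT. It was 2.32-fold higher in PKO than in WT (1.75 to 3.11) and NF1 exceeded WT by 1.85-fold (1.39 to 2.49); the first call ended with total counts as the only scaling (log2 ratio 0.76), and NF1 was called higher with the trends removed (1.01). Cenpe, a kinesin of the kinetochore, had 22 counts (1.34 CPM) in PKO-NF1, 59 counts (2.99 CPM) in NF1, 27 counts (1.52 CPM) in PKO and 43 counts (2.54 CPM) in WT. It was 2.23-fold lower in PKO-NF1 than in NF1 (1.35 to 3.82), with a log2 ratio of -0.67 once the trends were removed. The remaining 12 mitosis genes (Cdc20, Plk1, Aurka, Aurkb, Bub1, Bub1b, Cenpf, Kif11, Kif20a, Tpx2, Nusap1 and Prc1) were called in no comparison, although Plk1 was called lower in PKO-NF1 than in NF1 with the trends removed (log2 ratio -1.03, against -0.98 before). They are kinases, checkpoint proteins and spindle motors of mitosis, at mean levels of 0.991 to 6.01 CPM, and their log2 ratios ran from -0.55 to 0.66 in NF1 against WT, -0.84 to 0.90 in PKO-NF1 against PKO, -0.85 to 0.36 in PKO against WT and -0.98 to 0.99 in PKO-NF1 against NF1. Cdc20, Prc1, Kif20a and Nusap1 overlap exons of Elovl1, Rccd1, Cdc23 and Oip5, in that order, on the opposite strand.

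**Figure D5:**
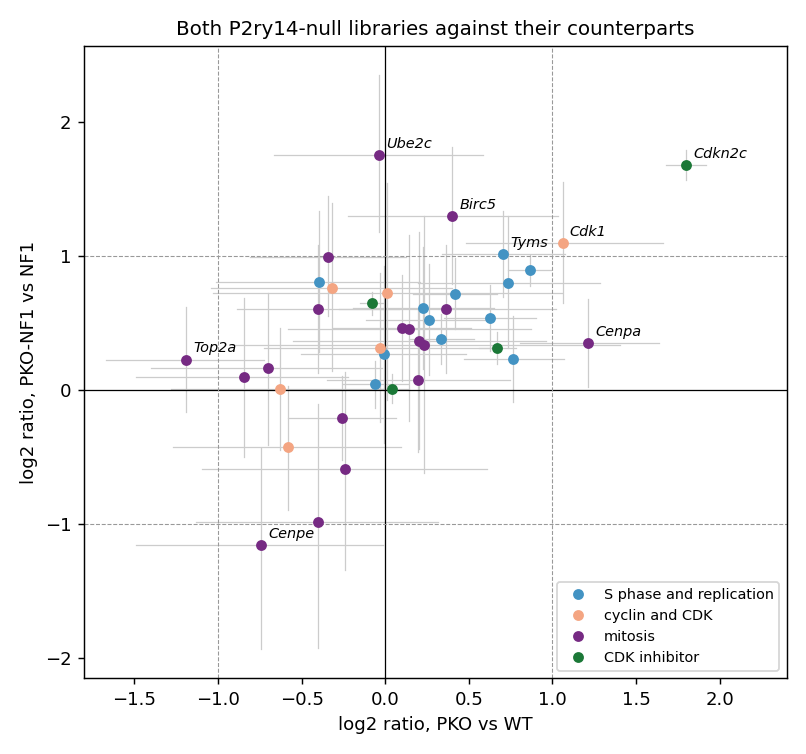
Log2 ratios of the 40 genes in PKO vs WT (x axis) and PKO-NF1 vs NF1 (y axis), with 95% counting intervals and colours for role; genes called in either pair are named. Cdkn2c and Cdk1 are past 2-fold on both axes, whereas Tyms, Ube2c, Birc5, Top2a, Cenpa and Cenpe are past it on a single axis.

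Set side by side, the pairs without a shared library agreed in direction about as often for these genes as for all genes. For Nf1, 18 of the 40 genes were higher and 10 lower in both pairs, 70% on the same side against 68% of all genes, and 0 were called in both, where 190 of 14855 genes were called higher and 381 lower. For P2ry14, 22 were higher and 5 lower in both pairs, 67.5% against 73.2% of all genes, and 2, Cdkn2c and Cdk1, were called higher in both, where 435 of 14855 genes were called higher and 422 lower. PKO-NF1 was the highest library for 22 of the 40 genes (55%), against 29.7% of all genes. NF1 was the lowest for 14 (35%), against 21.8%.

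Promoter stretches are shown for the genes called in both P2ry14 pairs, Cdkn2c and Cdk1, and for Top2a, Ube2c and Birc5, the mitosis genes called in more than 1 comparison. Sequences are from RefSeq on GRCm38.p6, read 5′ to 3′ and ending at or beside the annotated start. Capitals mark CCAAT boxes, on the other strand read as ATTGG, and matches on either strand to the cell cycle homology region (CHR), an element that the DREAM complex binds in late cycle genes. The CHR was searched as the spelling TTTGAA, as its variant with a CG step TTCGAA, and as the palindromic form TTTAAA.
Cdkn2c (chr4:109665373-109665492, minus strand): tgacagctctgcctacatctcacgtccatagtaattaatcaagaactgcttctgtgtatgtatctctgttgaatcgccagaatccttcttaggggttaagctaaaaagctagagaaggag
Cdk1 (chr10:69352913-69353032, minus strand): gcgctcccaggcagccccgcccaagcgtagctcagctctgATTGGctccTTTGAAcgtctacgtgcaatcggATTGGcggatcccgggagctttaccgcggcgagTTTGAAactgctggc
Top2a (chr11:99024190-99024309, minus strand): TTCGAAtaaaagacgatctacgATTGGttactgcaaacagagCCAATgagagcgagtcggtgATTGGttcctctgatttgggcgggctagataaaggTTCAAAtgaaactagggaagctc
Ube2c (chr2:164769809-164769927, plus strand): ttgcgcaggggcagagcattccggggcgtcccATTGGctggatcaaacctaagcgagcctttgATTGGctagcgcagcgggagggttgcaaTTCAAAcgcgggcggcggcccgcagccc
Birc5 (chr11:117849117-117849236, plus strand): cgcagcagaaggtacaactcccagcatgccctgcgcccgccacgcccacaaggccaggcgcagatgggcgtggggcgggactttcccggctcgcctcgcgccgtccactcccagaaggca
The Cdkn2c stretch precedes its downstream start, lies in an intron of the longer transcript and holds no match. The window of Birc5 held 1 CHR spelling, outside the stretch shown, and no CCAAT box. Other windows also held more than their stretches show, with 4 CHR spellings and 6 CCAAT boxes for Top2a. Those of Cdk1 and Ube2c held 3 and 6 CCAAT boxes. In the stretches, 26 bases of Cdk1 and 30 of Ube2c lie in annotated exons, including the CHR spelling nearest the start. Windows were found for 33 of the 40 genes, and motifs were counted in the 250 bases before each start. A CHR spelling was in 18 of 32 windows of the 36 cycle genes (56.2%), against 26.2% of 32851 windows of all genes, and CCAAT was in 26 (81.2%), against 33.8%. E2F sites were searched on either strand as the spelling TTGGCGC, which can overlap a CCAAT box, as the form with a second CG step TTCGCGC, as the form with a run of cytosines TTCCCGC, and as the remaining variant searched here TTGCCGC. They were in 7 of 12 windows of S phase genes (58.3%) and 1 of 16 windows of mitosis genes (6.25%), against 7.89% of all windows. Of the 5 inhibitor windows 1 held an E2F spelling, the upstream start of Cdkn2c. The Cdk1 window held 2 E2F spellings, outside the stretch shown. A match describes letters in a window, not a bound site.

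Genes of 4 other lists are described beside the 40. For reading their counts, the shares of all genes called higher and lower were 10.1% and 6.23% in NF1 against WT, 5.18% and 9.61% in PKO-NF1 against PKO, 10% and 5.21% in PKO against WT, and 7.86% and 13.6% in PKO-NF1 against NF1. With the trends removed, 1094 of 14855 genes were higher and 692 lower in NF1 against WT, and 447 and 742 in PKO-NF1 against PKO. In PKO against WT 743 and 857 were then higher and lower, and in PKO-NF1 against NF1 871 and 1471. Ccnd1, which encodes cyclin D1, the partner of Cdk4 and Cdk6, was at 349 CPM in PKO-NF1, 280 in NF1, 172 in PKO and 366 in WT. PKO was thus the low library and was called lower than WT, while PKO-NF1 was called higher than PKO. Cdk6 was at 1.89 CPM in PKO-NF1, 4.97 in NF1, 2.31 in PKO and 6.84 in WT and was called lower in both P2ry14 pairs, the reverse of Cdkn2c; with the trends removed it was called in PKO against WT alone. Of 32 control genes, including the D cyclins, retinoblastoma proteins and E2F factors, 0 were called higher and 3 lower in PKO against WT (Cdk6, Ccnd1 and Foxm1, the late-cycle transcription factor). In PKO-NF1 against NF1, 0 were higher and 4 lower (E2f3, E2f6, Cdk6 and E2f2). In PKO-NF1 against PKO, 2 were higher (Cdkn2a and Ccnd1) and 1 lower (Pkmyt1, an inhibitory kinase of Cdk1); with the trends removed these counts were 4 and 0. In NF1 against WT, 1 was higher (E2f6, at 102 CPM in NF1 and 39.7 CPM in WT) and 0 lower.

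Of 55 other mitosis genes measured, 12 were called higher and 1 lower (Hjurp) in PKO-NF1 against PKO, with 41 ratios above 1, 14 below and a median log2 ratio of 0.40. The foremost were the kinase Pbk (4.94 CPM in PKO-NF1 against 0.900 CPM in PKO), the condensin subunit Ncapg (2.75 CPM against 0.394 CPM), the spindle checkpoint kinase Ttk (1.83 CPM against 0.394 CPM) and Fam64a (2.20 CPM against 0.562 CPM), from 7 to 16 counts in PKO. In PKO against WT 2 were higher and 8 lower (median -0.25), and Pbk, Ncapg, Ttk and Fam64a were among the lower ones, so the same low PKO counts enter both comparisons. In PKO-NF1 against NF1 6 were higher and 1 lower (median 0.26), and in NF1 against WT 5 were higher and 2 lower (median 0.06). Without the length and GC trends, 8 were higher and 0 lower in PKO-NF1 against PKO, and 0 higher and 7 lower in PKO against WT; 3 were then higher and 2 lower in PKO-NF1 against NF1, and 2 higher and 2 lower in NF1 against WT.

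Of 49 other replication genes measured, 3 were called higher and 3 lower in PKO-NF1 against PKO, 6 higher and 0 lower in PKO against WT, 2 higher and 1 lower in PKO-NF1 against NF1, and 3 higher and 0 lower in NF1 against WT. With the trends removed these were 1 and 1, 1 and 2, 1 and 1, and 1 and 0. Gins2, a subunit of the replicative helicase complex, was at 12.9 CPM in PKO-NF1, 5.13 in NF1, 14.7 in PKO and 6.02 in WT. It was called higher in both P2ry14 pairs, also with the trends removed, when it was the only replication gene of this list called higher in either pair. Of 19 p53 target genes, 4 were higher and 0 lower in NF1 against WT, and 6 higher and 0 lower in PKO-NF1 against PKO, or 3 and 0 with the trends removed. In PKO against WT 1 was higher and 2 lower, and in PKO-NF1 against NF1 1 was higher and 1 lower. Cyclin G1, Ccng1, led the first of these with 1283 CPM in NF1 and 150 CPM in WT, beside summed skeletal muscle markers of 82762 CPM in NF1 and 1761 CPM in WT; the part of muscle RNA in this difference was not tested. Cdkn1a, itself a p53 target, had log2 ratios of -0.93 in NF1 against WT and -0.20 in PKO-NF1 against PKO. In PKO against WT its log2 ratio was -0.077, and in PKO-NF1 against NF1 it was 0.65.

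Summed cell type markers also differed between libraries. The 12 macrophage markers summed to 1638 CPM in PKO-NF1, 965 in NF1, 1423 in PKO and 1018 in WT, and none was at 0 in any library. The 10 lymphoid markers found summed to 13.5 CPM in PKO-NF1, 5.84 in NF1, 9.84 in PKO and 5.37 in WT, with Cd8a and Ms4a1 at 0 in WT. The 14 bone marrow and red cell precursor markers summed to 138 CPM in PKO-NF1, 6.44 in NF1, 21.03 in PKO and 19.6 in WT, and the 4 globin symbols were listed at 0 in every library. The 10 endothelial markers summed to 565 CPM in PKO-NF1, 320 in NF1, 920 in PKO and 761 in WT, with none at 0. Of these, 4 were called lower in PKO-NF1 than in PKO, 6 lower in NF1 than in WT and 2 higher in PKO-NF1 than in NF1. The 11 fibroblast and perineurial markers summed to 13951 CPM in PKO-NF1, 8514 in NF1, 11143 in PKO and 8721 in WT. The 12 Schwann cell markers summed to 18571 CPM in PKO-NF1, 8358 in NF1, 33031 in PKO and 23297 in WT. Single markers did not all follow the sum. In PKO against WT 0 were called higher and 3 lower, with a median log2 ratio of -0.18. In PKO-NF1 against NF1 3 were higher and 2 lower (median 0.14), in NF1 against WT 0 and 4, and in PKO-NF1 against PKO 1 and 4. PKO-NF1 was the highest library for most of the cycle genes. It also had the highest sums of macrophage, lymphoid, marrow and fibroblast markers, but not of Schwann cell or endothelial markers. Single markers did not all follow these sums either. In PKO-NF1 against PKO, 1 of 12 macrophage markers was called higher and 0 lower, and of 5 lymphoid markers measured 1 and 0. Of 4 marrow markers measured 2 were higher and 1 lower, and of 11 fibroblast markers 0 and 1 (median log2 ratio 0.06). The part of any of these cell types in the result was not tested.

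A model with additive Nf1 and P2ry14 terms over the 4 libraries was fitted to 14855 genes with edgeR's quasi-likelihood test. The interaction supplies its 1 residual degree of freedom, so its p-values do not measure a spread between animals. For the Nf1 term 0 genes passed an adjusted p of 0.05 (0%; 3013, or 20.3%, had an unadjusted p under 0.05, and the DESeq2 Wald test called 340). None of the 40 genes passed, and Ccne2, with a fitted log2 change of 1.01, was the 1 gene with an unadjusted p under 0.05; DESeq2 called 0 of the 40. For the P2ry14 term 12 genes passed (0.0808%), among them 0 of the 40, while DESeq2 called 719 genes. Cdkn2c had a fitted log2 change of 1.74 and an edgeR adjusted p of 0.143, and it was higher in both P2RY14-/- libraries. Pcna, Tyms and Cdk1 were the others with an unadjusted p under 0.05, with fitted log2 changes of 0.88, 0.86 and 1.08, beside 24.2% of all genes. With the DESeq2 Wald test Cdkn2c was the 1 gene of the 40 that was called (log2 change 1.74, SE 0.34, adjusted p 6.31e-05).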

How the data were processed

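The values are raw read counts per gene symbol, which the authors deposited without normalization; the table has 4 sample columns, all used. Per the submitters' processing notes, the tools were featureCounts 1.5.2, HISAT2 2.0.5 and FastQC 0.11.7, with build mm10. No source used here gives the annotation, strand setting, read length or treatment of multi-mapping reads, so counts of overlapping genes and of near-identical copies are uncertain. Per the labels' protocols, libraries were made from total RNA with a TruSeq kit.

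The 40 genes and the other gene lists were chosen with earlier results of these data known. TMM factors from edgeR 4.0.16 (in R 4.3.3) turned counts into CPM. Genes with a mean of at least 0.5 CPM over the 4 libraries were tested, 14855 in all, including all 40 members; a mean was used because a limit in any single library keeps genes through their high group. Ratios of CPM have exact conditional (Clopper-Pearson) 95% intervals, and a call needs 2-fold and an interval excluding 1. Reads were amplified by PCR and carry no molecular identifiers, so the intervals describe counting error alone; a count of 0 allows up to 3 counts, or 0.152 to 0.183 CPM. The additive model used edgeR's glmQLFit with Benjamini-Hochberg adjustment; DESeq2 1.42.0 gave the alternative. Lengths and GC content came from GENCODE M21 (GRCm38), with 22750 symbols matched as written and 914 by a synonym in RefSeq. The trend-removed values subtract splines with 4 degrees of freedom in log10 length and in GC content.

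Members called in any comparison, Mki67, Top2a, Pcna, Ccnd1 and the inhibitors are given in full and other members by range and count; in other lists, up to 4 called genes per direction and comparison were eligible. Mcm3, Mcm6, Mcm7, Cdt1, Ccnb1, Cdkn2b and Cdkn2d were picked after their values were seen. Of the list entries, 2 matched through a synonym, 2 repeated another entry and 1 was not matched. The ratio and model code was tested on simulated data. Alternatives were DESeq2 size factors, total counts, other filters, a 1.5-fold limit, removal of muscle or ribosomal protein genes, removal of trends, and leaving out each library.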

Additional observations from a re-analysis of the deposited data

Results flagged for a closer look

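In 3 genes the direction of a difference was opposite in the pairs that address the same mutation, with both counting intervals excluding 1; with 1 library per genotype the difference between pairs was not tested. Cdc20, the activator of the anaphase-promoting complex, had a log2 ratio of -0.55 in NF1 against WT and 0.79 in PKO-NF1 against PKO. Prc1, a protein of the spindle midzone, had a log2 ratio of -0.51 in NF1 against WT and 0.50 in PKO-NF1 against PKO. Cdkn1a had a log2 ratio of -0.077 in PKO against WT and 0.65 in PKO-NF1 against NF1. Opposite intervals of this kind were found for 2 of the 40 genes in the Nf1 pairs, beside 1690 of all 14855 genes, and for 1 of the 40 in the P2ry14 pairs, beside 1191.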

How the results depend on the processing

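Calls on the 40 genes depended most on the fold limit, since many ratios lay between 1.5-fold and 2-fold. At 1.5-fold, 4 were higher and 2 lower in NF1 vs WT, 13 higher and 1 lower in PKO-NF1 vs PKO, 9 higher and 4 lower in PKO vs WT, and 15 higher and 2 lower in PKO-NF1 vs NF1, where of 14855 genes 2793 and 2446, 2300 and 2954, 2394 and 2254, and 2939 and 3524 were higher and lower. With total counts only, which moved the median log2 ratio of all genes to -0.22, 0.07, -0.53 and -0.17 in those comparisons, 2 were lower in NF1 vs WT, 1 higher and 6 lower in PKO vs WT, and 3 higher and 2 lower in PKO-NF1 vs NF1. Of 14863 genes tested with this scaling, 1079 were higher and 1588 lower in NF1 vs WT, and 755 and 2746 in PKO vs WT. In PKO-NF1 vs NF1 765 were higher and 2621 lower. This scaling also moved the share of higher among all called genes to 40.5% (from 61.9%), 45% (from 35%), 21.6% (from 65.8%) and 22.6% (from 36.7%). With the length and GC trends removed, 1 was higher in NF1 vs WT (Cenpa), 1 higher in PKO-NF1 vs PKO (Ube2c), and 2 lower in PKO vs WT (Top2a and Ccnb2), where the share of higher calls over all genes became 46.4%. Of all 14855 genes, 1094, 447, 743 and 871 were then higher and 692, 742, 857 and 1471 lower, with the comparisons in the order above. In PKO-NF1 vs NF1 Plk1 took the place of Cenpe as the 1 lower gene. The causes were not tested. DESeq2 size factors, no filter, a filter of 1 CPM in at least 1 library, and removal of muscle or ribosomal protein genes before scaling kept every count of called members within 1.5 times. The Cdkn2c calls held in all 7 alternatives to scaling, filter and trend, with log2 ratios from 1.34 to 1.81 in PKO vs WT and 1.52 to 1.79 in PKO-NF1 vs NF1. For the P2ry14 term the DESeq2 Wald test called 1 of the 40. The median fitted log2 change of the 40 genes was 0.15 for the Nf1 term (0.23 without WT or NF1, 0.04 without PKO or PKO-NF1) and 0.28 for the P2ry14 term (0.42 without WT or PKO, 0.07 without NF1 or PKO-NF1). With a library left out, the pair that stays whole sets the term by itself. The values in brackets therefore repeat the medians of the pairs and add no separate check. No paired analysis was possible because each genotype has 1 library and the labels carry no replicate numbers. Depth limits the low genes: between 20 and 26 of the 40 intervals lay wholly inside 2-fold in a comparison.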
